A study of Mus musculus with 2 samples.

Results

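The miR-302/miR-367 cluster is a run of 5 microRNA (miRNA) hairpins, Mir302b, Mir302c, Mir302a, Mir302d and Mir367, that lies within the span of the gene Larp7. It was examined in small RNA libraries from the forebrain of B6NCrl mouse embryos at embryonic day 12.5 (E12.5). The 5 genes were chosen by name, through their Ensembl identifiers in the GENCODE annotation, and all 5 had a row among the 1973 genes of the count tables. The series held 1 group of 2 biological replicates, both of them pools of healthy male and female embryos with no treatment named, so no contrast of treatment, genotype, age or tissue exists. The forebrains of 120 embryos were pooled for replicate 1 and those of 68 embryos for replicate 2, and the size range of the RNA was under 30 nt. Each pool gave 1 library, and the spread between the replicates therefore holds differences between pools, dissections and library preparations together.

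The cluster is known as a mark of pluripotent cells, where it is switched on by the pluripotency transcription factors and speeds the passage from G1 to S phase. It is also read in the early neuroepithelium, and mouse embryos that lack the miR-302 genes fail to close the neural tube and start neural differentiation too early. A miRNA finds its target messenger RNAs mainly through its seed, here bases 2 to 8, so hairpins whose mature products share a seed are expected to act on overlapping targets. Each hairpin can yield a 5p and a 3p mature miRNA, and the 3p products of the cluster are its best-known active forms.

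In the forebrain at E12.5 the cluster held 9092 reads in replicate 1 and 9914 reads in replicate 2, or 0.218% ± 0.0111 of all reads assigned to miRNA genes (SD, n = 2). Almost all of this came from the 4 miR-302 hairpins, with 9086 and 9912 reads. Mir367, the last hairpin of the run, had 6 reads and 2 reads.

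The sequences show how the products of the cluster are related. They are RefSeq mature miRNAs of build GRCm38.p6, all on the + strand of chromosome 3, written 5′ to 3′ with the seed in capitals. The 3p products of Mir302b, Mir302c, Mir302d and Mir367 come first, since they carry the known seeds of the cluster, and the 5p products, which the counts cannot separate from them, follow.
miR-302b-3p: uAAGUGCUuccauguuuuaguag
miR-302c-3p: aAGUGCUUccauguuucagugg
miR-302d-3p: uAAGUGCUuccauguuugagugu
miR-367-3p: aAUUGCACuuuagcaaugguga
miR-302b-5p: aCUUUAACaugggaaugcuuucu
miR-302c-5p: gCUUUAACaugggguuaccugc
miR-302a-5p: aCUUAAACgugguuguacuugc
miR-302d-5p: aCUUUAACauggaggcacuugcu
miR-367-5p: aCUGUUGCuaacaugcaacuc

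The 3p products of Mir302b and Mir302d have the same seed, AAGUGCU, and over 23 bases they differ only by the substitutions U18G, A22G and G23U, with positions counted from the 5′ end of miR-302b-3p. The annotated miR-302c-3p begins 1 base further in. Set against miR-302b-3p with that offset it matches in 20 of 22 bases, with U18C and A22G, but its bases 2 to 8 read AGUGCUU, and the letters AAGUGCU stand at its bases 1 to 7. The seed of miR-367-3p, AUUGCAC, is that of the miR-25 and miR-92 family and unlike that of miR-302. On the 5p side, Mir302b, Mir302c and Mir302d share the seed CUUUAAC, while miR-302a-5p has CUUAAAC.

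The 5 hairpins lie on the + strand of chromosome 3 within 580 bases, chr3:127545228-127545807 of mm10, and Larp7 lies on the - strand. The cluster is therefore inside Larp7 but antisense to it. In the 2 Larp7 transcripts that span the cluster no exon overlaps it, and in Larp7-201 it sits in the intron of 1547 bases between exons 8 and 9. Mir302b occupies 127545228 to 127545301, Mir302c 127545363 to 127545430, Mir302a 127545496 to 127545564, Mir302d 127545624 to 127545689 and Mir367 127545733 to 127545807. The hairpins are 43 to 65 bases apart, and 18 bases separate the end of Mir367 from exon 8 of Larp7. Of the coding genes looked up above the cluster, Zgrf1 starts 7.68 kb away and Neurog2, a proneural transcription factor gene, 87.3 kb away. The nearest other miRNA gene in the annotation, Gm44494, is 64.0 kb away and was not analysed here. The others with counts, Gm24515 at 2138 kb above, Gm22066 at 4530 kb below and Gm25042 at 5886 kb above, had 0 reads in both libraries. Mir7657 and Gm44361, the remaining ones among the 3 nearest on each side, were not analysed here.

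**Figure D1:**
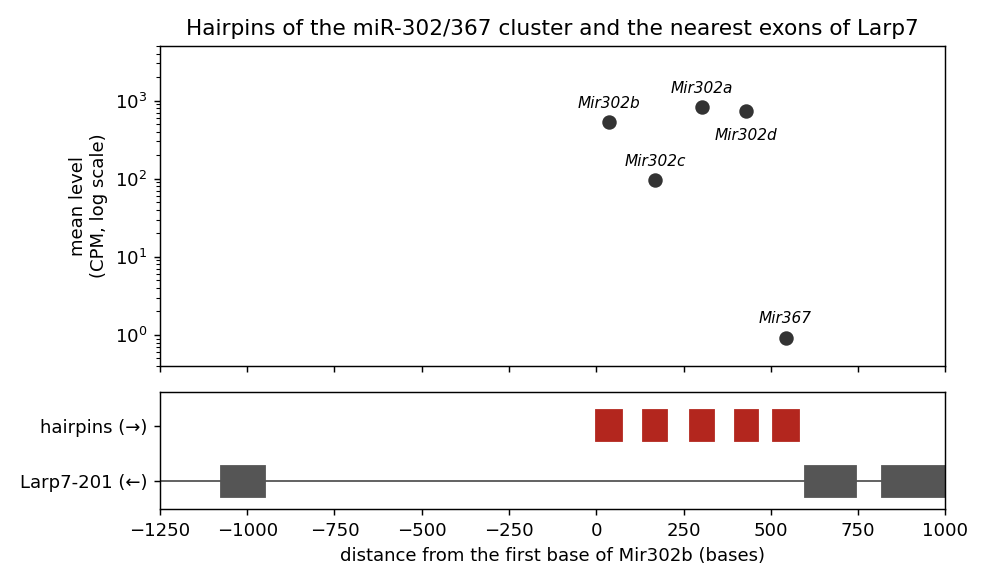
The lower panel maps the 5 hairpins (red, + strand) and exons of the Larp7-201 transcript (grey, - strand) by distance in bases from the start of Mir302b, and the upper panel gives the mean level of each hairpin over 2 libraries in CPM on a log axis. Mir302a and Mir302d, side by side, are highest at 822 and 726 CPM, and Mir367, next to them, is lowest at 0.920 CPM.

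Levels are given as counts per 1000000 assigned reads (CPM), over 4333194 assigned reads in replicate 1 and 4397107 in replicate 2. The limit that a count of 0 allows, 3 counts, was 0.692 CPM for replicate 1 and 0.682 CPM for replicate 2. The 95% intervals given below are exact Poisson intervals for levels and exact binomial (Clopper-Pearson) intervals for shares and ratios. Such intervals and limits cover counting error of reads only, not differences between pools or library preparations. PCR copies of a molecule are counted as separate reads, which they do not allow for. A miRNA read covers the whole mature product, so counts were not divided by hairpin length.

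Mir302a (ENSMUSG00000065552.1) was the highest member. It had 3447 reads or 795 CPM in replicate 1 (interval 769 to 822) and 3731 reads or 849 CPM in replicate 2 (interval 822 to 876). Its mean of 822 ± 37.5 CPM (SD, n = 2) placed it at rank 113 of the 1973 genes. Mir302d (ENSMUSG00000065447.1), whose 3p product carries the seed AAGUGCU, had 3066 reads or 708 CPM in replicate 1 (interval 683 to 733) and 3277 reads or 745 CPM in replicate 2 (interval 720 to 771). Its mean was 726 ± 26.7 CPM, at rank 122. Mir302b (ENSMUSG00000076252.1), with the same 3p seed, had 2167 reads or 500.1 CPM in replicate 1 (interval 479 to 522) and 2480 reads or 564 CPM in replicate 2 (interval 542 to 587). Its mean was 532 ± 45.2 CPM, at rank 133. These 3 hairpins thus stood near each other in level, among the abundant but not the leading miRNA genes of the tissue. For scale, the median over the 763 genes with any read was 3.67 CPM.

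Mir302c (ENSMUSG00000065482.1), the member whose annotated 3p seed is shifted, stood well below them. It had 406 reads or 93.7 CPM in replicate 1 (interval 84.8 to 103) and 424 reads or 96.4 CPM in replicate 2 (interval 87.5 to 106), with a mean of 95.1 ± 1.93 CPM at rank 232. Mir367 (ENSMUSG00000065413.2), the only member with a seed of the miR-25 and miR-92 family, stood near the limit of detection. Its 6 reads in replicate 1 gave 1.38 CPM (interval 0.508 to 3.01) and its 2 reads in replicate 2 gave 0.455 CPM (interval 0.0551 to 1.64), with a mean of 0.920 ± 0.657 CPM at rank 522. The intervals of the libraries overlapped for Mir367, and its counts do not show which library held more.

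**Figure D2:**
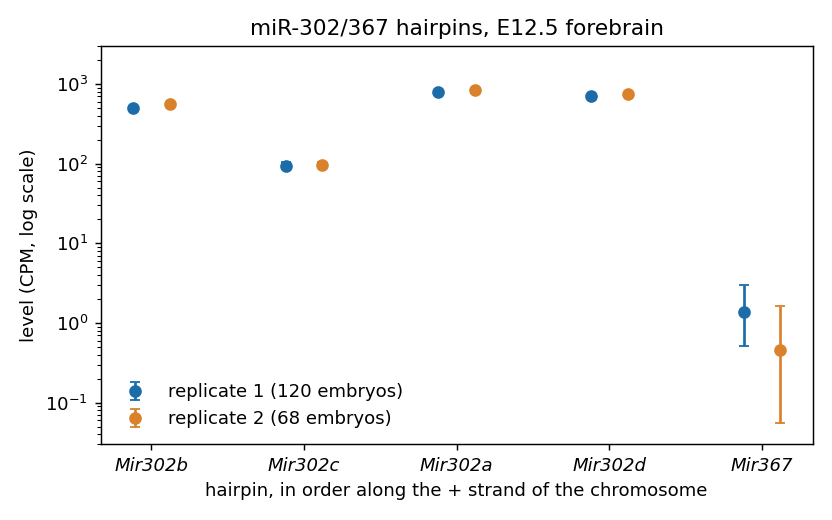
Level of each hairpin in CPM (log axis) in replicate 1 (blue) and replicate 2 (orange), with exact Poisson 95% intervals as bars, in order along the chromosome. The replicates nearly coincide for the miR-302 hairpins, while Mir367 lies at 1.38 and 0.455 CPM with wide intervals.

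The order of the hairpins was Mir302a, Mir302d, Mir302b, Mir302c and Mir367 in each library, and no neighbours in this order had overlapping CPM values. With 2 libraries a paired exact test over libraries cannot go below p = 0.5, so the differences are described beside their spread. They are differences in reads. How evenly hairpins of different sequence turn into reads was not measured, and the spread between libraries does not show it. Mir302a exceeded Mir302d by 1.12-fold in replicate 1 (interval 1.07 to 1.18) and by 1.14-fold in replicate 2 (interval 1.09 to 1.19). The mean log2 difference of this pair was 0.18 ± 0.013 (SD, n = 2), small but larger than its SD between the libraries. As levels, their means lay 95.6 CPM apart, and the values of Mir302a, from 795 to 849 CPM, and those of Mir302d, from 708 to 745 CPM, did not overlap. Mir302d exceeded Mir302b by 1.41-fold and 1.32-fold, with a mean log2 difference of 0.45 ± 0.070. Mir302b exceeded Mir302c by 5.34-fold (interval 4.80 to 5.95) and 5.85-fold (interval 5.27 to 6.50), the widest step within the miR-302 hairpins, with a mean log2 difference of 2.48 ± 0.093.

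The step to Mir367 was the widest of all in this cluster, and also the least exactly measured. Mir302c exceeded Mir367 by 67.7-fold in replicate 1 (interval 30.8 to 185) and 212-fold in replicate 2 (interval 58.3 to 1756). Mir302d, the hairpin 43 bases before it, exceeded it by 511-fold (interval 235 to 1394) and 1639-fold (interval 453 to 13535). With the reads of both libraries together, 7178 for Mir302a and 8 for Mir367, the ratio was 897 (interval 455 to 2079).

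As shares of the cluster's own reads, Mir302a held 37.8% ± 0.197, Mir302d 33.4% ± 0.472, Mir302b 24.4% ± 0.835, Mir302c 4.37% ± 0.133 and Mir367 0.0431% ± 0.0324 (SD, n = 2). The share of Mir302a was 37.9% in replicate 1 (interval 36.9 to 38.9) and 37.6% in replicate 2 (interval 36.7 to 38.6). That of Mir302d was 33.7% (interval 32.8 to 34.7) and 33.1% (interval 32.1 to 34.0). The make-up of the cluster was thus close in the pools. Position along the chromosome did not order the levels, since the low Mir302c lies between Mir302b and Mir302a.

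Predicted folding energy, not scaled by hairpin length, and GC content did not follow the order of levels. The predicted minimum free energy of the RefSeq hairpin was -34.5 kcal/mol for Mir367, the lowest value of the 5, and -23.3 kcal/mol for Mir302b, the highest. Mir367 is also the longest hairpin, at 75 bases, which bears on this value. Mir302a, Mir302c and Mir302d had -31.7, -28.6 and -27.5 kcal/mol. GC content ran from 39.2% in Mir302b to 47.1% in Mir302c, with 42.7% in Mir367.

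Reads that match several places stand outside the gene counts, so stretches shared between hairpins bear on these levels. Among 2202 hairpins of the GENCODE annotation, Mir302a and Mir302b shared 20 bases with each other, Mir302d shared 17 with Mir302a, and Mir302c shared 16 with Mir302a. Outside the cluster the longest stretch shared with any hairpin was 13 bases for Mir302b and Mir302d and 12 for Mir302a and Mir302c. Among mature products, miR-302b-3p and miR-302d-3p shared 17 bases and miR-302b-3p and miR-302c-3p 16, so full-length reads of 22 or 23 bases differ between them, whereas shorter reads may not. Mir367 shared no more than 11 bases with any other annotated hairpin. Whether reads of any hairpin of the cluster were lost to several matches was not tested, since it is not stated where such reads fell. On the opposite strand, which is that of Larp7, all 5 hairpins had 0 reads in both libraries, at most 0.692 and 0.682 CPM each by the limit of 3 counts.

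Between the pools the miR-302 hairpins differed little. All 4 were lower in replicate 1 than in replicate 2, as were 287 of all 511 tested genes. The log2 ratios of CPM + 1 (replicate 1 over replicate 2) were -0.17 for Mir302b, -0.09 for Mir302a, -0.07 for Mir302d and -0.04 for Mir302c. The value of Mir302c was 0.0016 with edgeR's TMM scaling. The median over all 511 genes with at least 10 reads was -0.04. Fisher's exact tests of the reads, a comparison of the libraries alone, gave Benjamini-Hochberg adjusted p-values over all tested genes of 0.000186 for Mir302b, 0.0216 for Mir302a, 0.103 for Mir302d and 0.835 for Mir302c. An adjusted p under 0.05 was reached by 2 of the 4 members tested, where 32.7% of all tested genes reached it. None of the 4 also differed by at least 2-fold, where 2.74% of all tested genes did. Mir367, with 8 reads in all, was under the minimum for this test. Mir302a no longer had an adjusted p under 0.05 in Fisher's exact test with TMM scaling, at 0.294, or with DESeq2 size factors, at 0.107. The typical variation between the libraries, as edgeR's common biological coefficient of variation over 403 genes, was 16.4%, while Mir302b, the member that differed most by this test, was 1.13-fold higher in replicate 2.

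**Figure D3:**
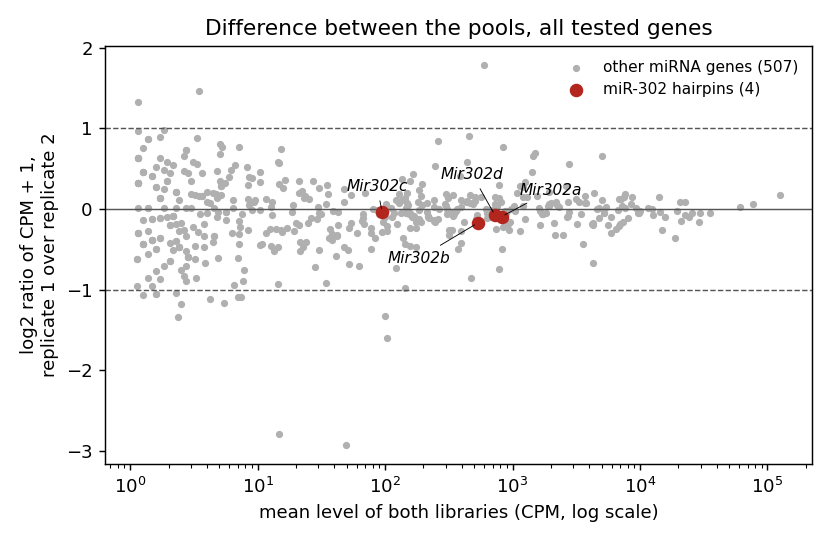
Each point is a miRNA gene with at least 10 reads, with its mean level in CPM on a log axis and its log2 ratio of CPM + 1, replicate 1 over replicate 2. The miR-302 hairpins (red) lie between -0.17 and -0.04, inside the dashed lines that mark a 2-fold difference.

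What else in the forebrain carries these seeds was read from all genes with a listed mature product. Of 1679 mature miRNAs in the RefSeq table, 5 have AAGUGCU as their seed, and 16 (0.953%) hold these letters anywhere on their own strand. Beside those of Mir302b and Mir302d they are the 3p products of Mir291a, Mir294 and Mir295 of the miR-290 cluster on chromosome 7, the other miRNA cluster typical of pluripotent mouse cells. Mir302a is not placed in this group by sequence, because its 3p product, miR-302a-3p, which is known to carry the same seed, is not among the sequences used here. Sums are therefore given both without and with it. Mir302b and Mir302d together stood at 1258 ± 71.9 CPM, and with Mir302a at 2080 ± 109 CPM, against 11.1 ± 1.34 CPM for the 3 genes of the miR-290 cluster (SD, n = 2). The members held 99.1% of the reads of the genes in the seed group without Mir302a and 99.5% with it. The count of a gene holds its 5p and 3p reads together, so these are not shares of reads with the seed. The 3p products of these 3 genes have the same seed, and those of Mir291a and Mir294 match miR-302b-3p in 14 of 22 bases each.
miR-291a-3p: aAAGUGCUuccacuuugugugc
miR-294-3p: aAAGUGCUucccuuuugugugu
miR-295-3p: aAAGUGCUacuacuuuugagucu

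Over all their members, the miR-302/miR-367 cluster stood at 2176 ± 110.6 CPM and the miR-290 cluster at 34.0 ± 4.40 CPM (SD, n = 2), a ratio of 56.5 in replicate 1 and 72.9 in replicate 2. All 7 genes of the miR-290 cluster had reads in both libraries. Mir293 led them with 80 and 62 reads, or 16.3 ± 3.08 CPM. Mir294 had 29 and 35 reads, or 7.33 ± 0.896 CPM, and Mir292 had 30 and 16 reads, or 5.28 ± 2.32 CPM. Mir291a with 9 and 12 reads, Mir295 with 6 and 6, Mir291b with 6 and 4 and Mir290a with 1 and 1 were lower. The clusters did not overlap in summed level in any library, but single hairpins did, since Mir367 stood within the range of the miR-290 genes. In bulk tissue, fewer cells that express a miRNA and less of it in each cell cannot be told apart.

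The seed letters of miR-302 also stand, 1 base further in, in miRNAs of the miR-17 family, which promote the division of progenitor cells and are among the most abundant miRNAs of this tissue. In miR-17-5p, miR-20a-5p, miR-93-5p and miR-106b-5p the letters AAGUGCU begin at base 3 instead of base 2, and the seed reads AAAGUGC.
miR-17-5p: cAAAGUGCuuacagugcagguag
miR-20a-5p: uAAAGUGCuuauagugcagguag
miR-93-5p: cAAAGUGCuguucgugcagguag
miR-106b-5p: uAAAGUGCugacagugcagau

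The members with the seed AAGUGCU, Mir302b and Mir302d, stood at 1258 ± 71.9 CPM, against 127511 ± 558 CPM for all genes with the seed AAAGUGC (SD, n = 2). Summed, the genes with AAAGUGC were 105-fold higher in replicate 1 and 97.7-fold higher in replicate 2. With Mir302a added, the members stood at 2080 ± 109 CPM, and the genes with AAAGUGC were 63.5-fold and 59.3-fold higher. They comprise Mir17 at 60649 ± 595 CPM, Mir20a at 24125 ± 1104 CPM, Mir93 at 22647 ± 992 CPM, Mir106b at 15720 ± 769 CPM, Mir106a at 2742 ± 112 CPM and Mir20b at 1628 ± 160 CPM, with Mir6383 at 0 reads. The paralogues with a different seed, Mir18 at 9830 ± 257 CPM and Mir18b at 241 ± 15.8 CPM, complete the list of miR-17 relatives. The highest member of the cluster, Mir302a at 822 CPM, thus stood below Mir20b, the lowest of the genes with the miR-17 seed that had reads, and above Mir18b.

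The seed of miR-367-3p was carried almost wholly by other genes. Mir367 stood at 0.920 ± 0.657 CPM and its 6 seed relatives together at 30336 ± 907 CPM (SD, n = 2), so that Mir367 gave 0.00303% of the reads of the genes in this seed group. Mir92b, which restrains the formation of intermediate progenitors in the cortex, led the group at 19620 ± 283 CPM. Mir92-1 of the miR-17~miR-92 cluster stood at 7027 ± 628 CPM, Mir363 at 1699 ± 55.3 CPM, Mir25, which lies with Mir93 and Mir106b in Mcm7, at 1084 ± 105 CPM, Mir92-2 at 513 ± 49.1 CPM and Mir32 at 393 ± 4.07 CPM. Mir92-1 and Mir92-2 give the same mature miR-92a-3p, and each shares 22 bases with another hairpin, so their levels are uncertain. The lowest of the group after Mir367, Mir32 with 1715 reads in each library, lay far above the 6 and 2 reads of Mir367. Over 22 bases miR-367-3p, printed above, and miR-92b-3p match at 10, and their longest shared stretch is 8 bases. The relatives below show the seed in capitals.
miR-92b-3p: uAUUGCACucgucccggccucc
miR-25-3p: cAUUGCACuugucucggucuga

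**Figure D4:**
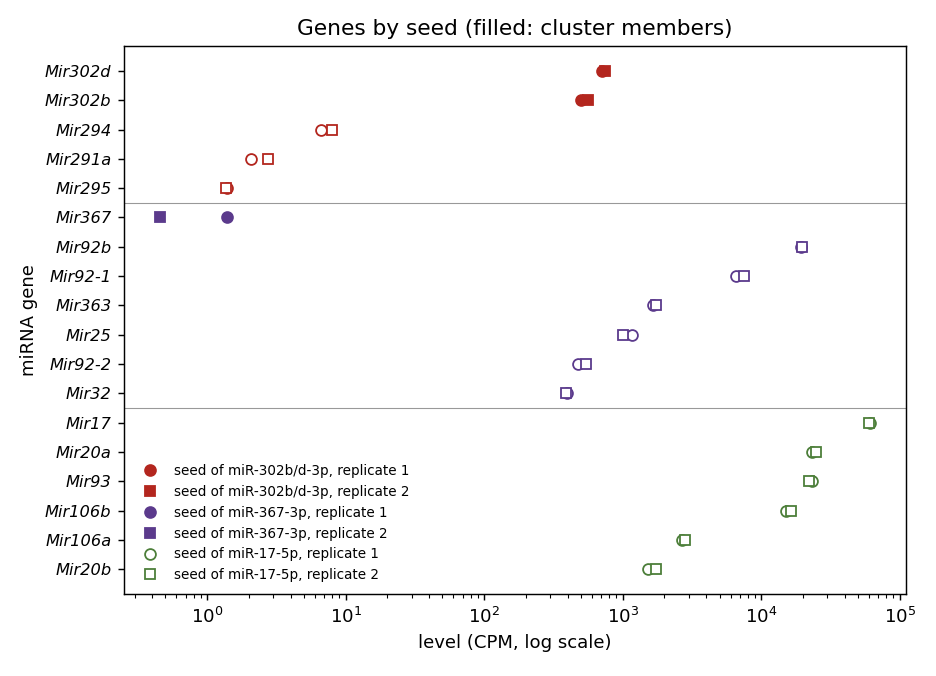
Levels in CPM (log axis) of miRNA genes with reads, in replicate 1 (circles) and replicate 2 (squares), grouped by the seed of miR-302b/d-3p (red), of miR-367-3p (purple) and of miR-17-5p (green), with cluster members filled. Among the genes drawn with the seed of miR-302b/d-3p, without Mir302a at 822 CPM, Mir302b and Mir302d are above the others, whereas Mir367 is the lowest of its own group.

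A spread of levels within a cluster was also found elsewhere. From highest to lowest member, on the log2(CPM + 1) scale, the miR-302/miR-367 cluster spanned 8.79 ± 0.570 (SD, n = 2), and its miR-302 hairpins alone 3.10 ± 0.037. The miR-290 cluster spanned 3.80 ± 0.256, miR-106b~miR-25 4.39 ± 0.077, miR-106a~miR-363 7.76 ± 0.146, miR-183/miR-96/miR-182 2.21 ± 0.089 and miR-200b/miR-200a/miR-429 3.30 ± 0.802. The miR-17~miR-92 cluster spanned more, 10.74 ± 0.027, from Mir17 to Mir19b-1 at 34.4 CPM. Mir19b-1, and likewise Mir19b-2 at 11.7 CPM in the miR-106a~miR-363 cluster, share 25 bases with another hairpin, so these lowest values are uncertain. Mir367 shares 11 bases at most with another annotated hairpin. Its value is uncertain too, with 6 reads in replicate 1 and 2 reads in replicate 2, and loss of its reads to several matches was not tested. The number of hairpins differs between these clusters, which bears on such ranges, and no test was made.

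**Figure D5:**
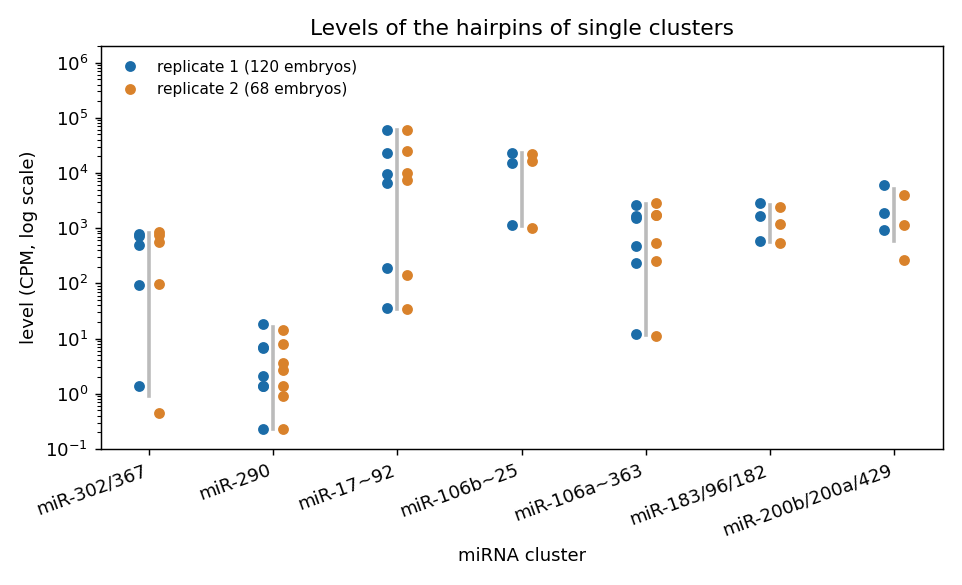
Each point is a hairpin of a named miRNA cluster, with its level in CPM (log axis) in replicate 1 (blue) and replicate 2 (orange), and grey lines join the lowest and highest mean. The miR-302/miR-367 cluster runs from 0.920 to 822 CPM, the miR-290 cluster from 0.229 to 16.3 CPM.

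For each member the genes closest in level over the 2 libraries, by the distance in log2(CPM + 1), were looked up, which describes level only. Reads that match several places are outside these counts. The level of a gene therefore need not measure its mature miRNA where another gene gives the same product. Mir302b was closest to Mir455 at 530 ± 40.5 CPM and to Mirlet7f-2 at 539 ± 39.8 CPM, with distances of 0.01 and 0.03. Mir302d was closest to Mir9-3, a gene of the neural progenitor miRNA miR-9, at 713 ± 0.551 CPM, and to Mir187 at 728 ± 21.9 CPM, with distances of 0.06 and 0.10. Mir9-3 shares 26 bases with Mir9-1, so its level does not measure how much miR-9 the tissue held. Mir302a was closest to Mir494 at 846 ± 91.7 CPM and Mir27b at 806 ± 35.7 CPM, with distances of 0.11 and 0.14. Mir302c was closest to Mir24-2 at 96.5 ± 7.91 CPM and Mir192 at 89.8 ± 2.63 CPM, with distances of 0.09 and 0.12. Mir367 had the same counts as Mir3101 and Mir3112, a distance of 0.

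The tissue label was read against lists of miRNAs by summed level, in replicate 1 and replicate 2. Beside 2098 and 2255 CPM for the cluster, neural miRNAs, 10 of 10 genes with a row having reads in both libraries, summed to 28978 and 28523 CPM. Most of that sum was Mir92b, also a seed relative of Mir367, while the genes of miR-124, a defining miRNA of neurons, had 1.95 to 6.29 CPM on average. The miR-9 genes with a row stood at 5.61 CPM for Mir9-2 and 713 CPM for Mir9-3. The genes of miR-124 share 32 bases with each other and those of miR-9 at least 26, and reads that match several places are outside these counts, so the counts do not measure how much miR-124 or miR-9 the tissue held. Mir126a of endothelial cells stood at 16564 and 21180 CPM. Epithelial miRNAs of the miR-200 family with Mir203 and Mir205 gave 13628 and 10008 CPM, and the miR-466, miR-467, miR-669 and miR-297 genes gave 3986 and 4517 CPM. Much lower were Mir451a and Mir144 of red blood cells at 318 and 238 CPM, the Hox cluster miRNAs at 189 and 176 CPM, muscle miRNAs at 28.2 and 49.1 CPM and Mir122 of the liver at 10.4 and 7.73 CPM. Of the 7 muscle genes with a row 3 had reads in both libraries, and Mir133a-1 and Mir133a-2, which share 31 bases with each other, were listed at 0 reads, which for the same reason does not measure miR-133a. The summed level of the miR-302/miR-367 cluster was higher in replicate 2, as was that of Mir126a. Within several lists the genes went both ways. The muscle sum was higher there through Mir206, with 13 reads in replicate 1 and 117 reads in replicate 2, while Mir208a and Mir208b were lower there. The epithelial sum was lower in replicate 2, but Mir203 and Mir205 were higher, and the red blood cell sum was lower there, but Mir144 was higher. The part of any of these in the levels of the cluster was not tested.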

How the data were processed

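Small RNA of 2 pools of E12.5 mouse forebrain was analysed, 1 library a pool. The deposited tables hold raw read counts per miRNA gene for both strands, the gene strand and the opposite strand. Per the file headers, the authors derived the counts from mm10 alignments with annotation M4. The aligner, the counter and the handling of multiply matching reads are "not stated" in the labels and headers. Of 11104730 and 11154304 reads, 37.9% in each library matched several places. Rows without a gene (61.0% and 60.6% of reads) entered neither library sizes nor tests.

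Genes were named from GENCODE M21, in which 1894 of 1973 identifiers and all 5 members matched. Sequences are from RefSeq (GRCm38.p6). A seed group holds genes with that seed in a listed mature product, and Mir302a entered through its 5p product. CPM used assigned gene-strand reads, log ratios a pseudocount of 1 CPM. Two-sided Fisher's exact tests (SciPy 1.17.1) with Benjamini-Hochberg adjustment covered all 511 genes whose reads summed to at least 10, since 1 group allows no contrast in edgeR, and these p-values cover counting error between the libraries. edgeR 4.0.16 gave TMM factors and the dispersion, DESeq2 1.42.0 size factors and ViennaRNA 2.7.2 folding energies. The test was also run on simulated counts that held counting error only, so that run does not cover differences between pools. Named genes were the members, their seed relatives, the miR-290, miR-25/92 and miR-17 lists, the 2 genes closest in level to each member and the 3 nearest miRNA genes on each side. Members and lists were chosen with earlier results of these data known. Alternatives changed the strand column, library size, scaling, pseudocount, minimum reads, hairpin length and the replicates used.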

Additional observations from a re-analysis of the deposited data

How the results depend on the processing

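Leaving out a replicate aside, 70 of 83 recomputed values counted as kept. For a ratio between pools this means its direction and its side of the adjusted p threshold. For a number of genes it means staying within a set fold, and for other values moving by no more than the SD between replicates. Some of these could not change, since the pseudocount enters neither the p-values nor the calls. The 5 hairpins had 0 reads on the opposite strand, so the strand column could not change their shares or order. Their order was also the same with counts divided by hairpin length, and each replicate alone gave the order described above. With reads that match several places added to the library size, the cluster share was 0.111% in place of 0.218%, and the levels were 418 CPM for Mir302a, 369 CPM for Mir302d, 271 CPM for Mir302b and 48.3 CPM for Mir302c. Mir367 then stood at 0.467 CPM in place of 0.920 CPM, which counted as kept only because its SD was 0.657 CPM. In the both-strand column Mir302c stood at 92.5 CPM. With counts divided by hairpin length the share of the cluster held by Mir302b was 22.8% and that of Mir302d 34.9%. A hand-written list of all miR-302 and miR-290 genes held 0.221% of assigned reads, against 0.127% for the genes whose listed product has the seed of miR-302b-3p, since it also holds Mir302a and Mir302c, and with Mir302a alone added, a choice made after seeing the data, the share was 0.209%. The log2 ratio of replicate 1 over replicate 2 was 0.0016 for Mir302c with TMM scaling, in place of -0.04 (adjusted p from 0.820 to 1 over its alternatives, Fisher's exact test). For Mir302a, past the threshold otherwise, the adjusted p was 0.294 with TMM scaling and 0.107 with DESeq2 size factors, over a range of 0.0171 to 0.294. With 2 replicates, leaving out one gives the value of the other, so this says nothing on stability, and Mir367 then stood at 0.455 or 1.38 CPM. No paired analysis was possible because there is 1 group, so that only hairpins within a library could be set against each other. With 6 and 2 reads, depth limits every statement on Mir367.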
